A study of Mus musculus with 6 samples.

Results

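The genes described here are the splicing regulators of the hnRNP, SRSF, TRA2, PTBP, CELF, MBNL, RBFOX, KHDRBS, NOVA and RBM families, in whole testes of Dazap1 mutant and wild-type mice. Members were chosen by gene symbol: every name on the array that begins with Hnrnp, Srsf, Tra2, Ptbp, Celf, Mbnl, Rbfox, Khdrbs, Nova or Rbm was taken. This gave 92 genes of the 18193 named on the array, after 2 antisense names had been left out, and 90 of the 92 were bright enough to be tested. Of these 90 genes, 12 (13.3%) were lower and 42 (46.7%) higher in the mutant testes, where 24.7% and 44.9% of all genes tested were. Khdrbs3 was the member that fell most, at log2 -1.57, and Mbnl3 was the one with the highest change, at log2 1.26.

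Fn testes came from mice homozygous for the Fn allele of Dazap1, in which a floxed allele still carries its neo cassette, and Wt testes came from mice with wild-type Dazap1. All animals were on a mixed background of C57BL/6 and 129 and were taken at postnatal day 21, with 3 samples per genotype, each on 1 Affymetrix array. The allele is present in every cell of the animal. It makes an aberrant DAZAP1 with an insertion between its RNA recognition motifs. Few Fn mice survive, with growth retardation and, in adults, arrested spermatogenesis. The paper describes day-21 testes of both genotypes as holding mostly pachytene spermatocytes, with haploid spermatids few or absent. The RNA preparations were independent, but the sources do not name the number of animals in each, so p-values measure the spread between these preparations.

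DAZAP1 is itself an hnRNP, an RNA-binding protein that promotes the inclusion of some exons. The paper also cites earlier studies in which it opposed inclusion. Splicing regulators bind short motifs in or near an exon and help or hinder the spliceosome there: SR proteins mostly promote exon inclusion, many hnRNPs and PTB proteins oppose it, and CELF, MBNL, RBFOX, KHDRBS and NOVA proteins act either way depending on where they bind. The testis is known for a large number of alternative exons, and several families keep 1 copy for most tissues and another for germ cells or brain, such as Ptbp1 and Ptbp2 or Rbmx and Rbmxl2.

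The deposited values are MAS5 signals, a linear brightness per probe set that the authors had already scaled. The mean of each array without its highest and lowest 2% of values was 498.4 to 498.6. Median signals were 90.0 to 105.2 in the Fn arrays and 86.3 to 89.9 in the Wt arrays. Dazap1 had signals of 2538, 2735 and 2819.8 in the Fn arrays, against 4323, 4462 and 5046 in the Wt arrays (log2 change -0.77, standard error 0.088, adjusted p = 6.7e-05 from limma). Its probe set was not placed relative to the altered part of the gene. Marker genes of testis cell types also differed. The summed signal of 13 markers of pachytene and diplotene spermatocytes was 27148 to 34999 in the Fn arrays and 92561 to 101493 in the Wt arrays, with 12 of 13 lower and 0 under the filter level of 48.0 in all arrays. That of 11 round spermatid markers was 2180 to 2776 in Fn and 17704 to 21525 in Wt arrays, with 9 of 9 tested lower. Markers of spermatogonia, 13 genes, summed to 15765 to 16908 in Fn and 13208 to 13713 in Wt arrays. Of these 13, 12 were higher and 1 was lower, at log2 -3.04. The 15 Sertoli cell markers summed to 71723 to 75510.3 in Fn and 41149 to 48333 in Wt arrays (14 of 15 higher). The 10 peritubular and stromal markers summed to 57767 to 60591 in Fn and 26507 to 35578 in Wt arrays (10 of 10 higher). Of the markers of other cells tested, 4 of 6 Leydig cell, 4 of 8 macrophage and 3 of 7 endothelial genes were higher, and 1 macrophage gene was lower. Of all genes tested, 44.9% were higher. The Leydig cell sums overlapped, at 9022 to 16512 in Fn and 8275.5 to 12483 in Wt arrays. The macrophage sums were 4495 to 6235 in Fn and 3445 to 4460 in Wt arrays. Those of endothelial cells were 2402 to 2549 in Fn and 1252 to 1528 in Wt arrays. The part of these shifts in the values below was not tested. The paper raised the concern that pachytene spermatocytes in day-21 Fn testes might lag in stage behind those of day-21 Wt testes, through growth retardation. With testes of a single age, such a delay cannot be told apart here from other effects of the genotype. In RNA of a whole testis, fewer cells of a type and less RNA per cell cannot be told apart.

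A smaller share of the splicing regulators than of all genes was lower, and about the same share was higher. Whether the members differ from other genes in this was not tested. A gene was called at an adjusted p under 0.05 in limma's moderated linear model, with adjustment over all 27022 probe sets tested and the brightest probe set standing for each gene. By this rule 12 of 90 members (13.3%) were lower in Fn testes, where 24.7% of all 13447 genes were, and 42 of 90 (46.7%) were higher, where 44.9% of all genes were. The median log2 change of the members was 0.27, against 0.32 for all genes tested. By size alone, 4 members (4.44%) were more than 2-fold lower, against 13.9% of all genes, and 9 members (10%) were more than 2-fold higher, against 11.8%. The Fn and Wt arrays did not overlap for 60 of the 90 members, where they did not overlap for 75.6% of all genes: 14 members had all Fn arrays below the Wt arrays (26.6% of all genes) and 46 had all of them above (48.9% of all genes). Quantile normalization put the median of the members above that of all genes, at 0.33 against 0.25. It called 12 members lower and 45 higher, adding higher calls for Khdrbs1, Ptbp1, Rbm46 and Srsf5 and ending that of Celf4. With the arrays centred on their medians the median of all genes was 0.17 and that of the members 0.12, and 17 members were lower and 33 higher. Median centring added lower calls for Hnrnpl, Hnrnpu, Hnrnpul1, Rbm33 and Rbm5. Centring on the 75th percentile gave 18 lower and 35 higher, with added lower calls for Hnrnpm, Hnrnpu, Hnrnpul1, Rbm33, Rbm5 and Srsf11. Lower members were then 34% of those called, in place of 22.2%, so small rises depend on the scaling. The shares of all genes called were not counted under these scalings or the other alternatives given below. The 24.7% and 44.9% above belong to the deposited scaling alone.

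**Figure D1:**
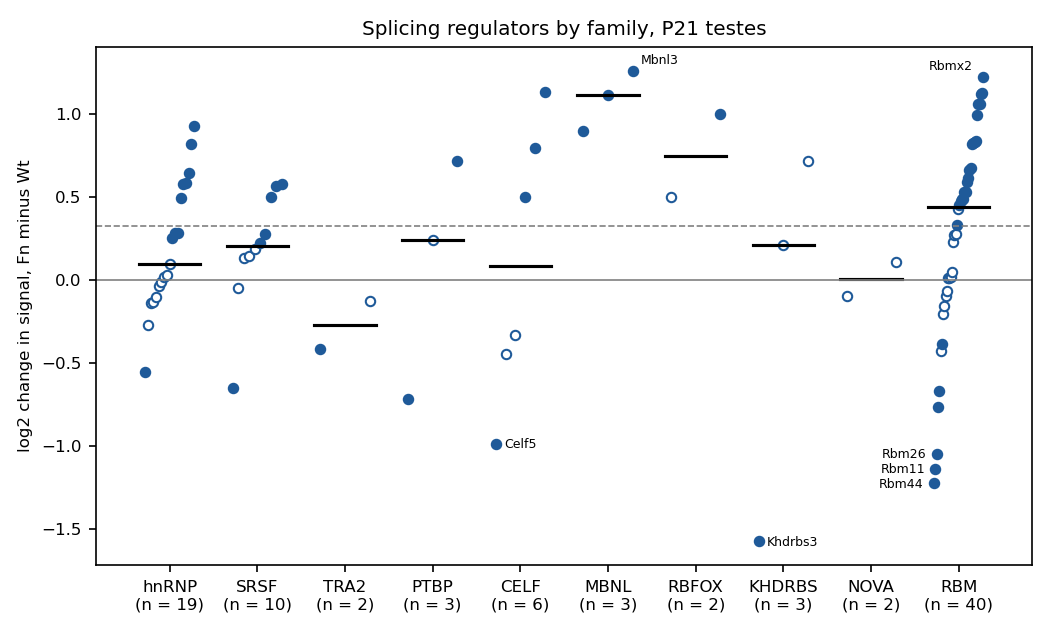
The 90 members tested, by family on the horizontal axis, with their log2 change in signal (Fn minus Wt) on the vertical axis. Filled circles are called members, open circles are not and bars are family medians; the dashed line stands at 0.32, the median over all genes. All 3 MBNL genes lie well above that line, and Khdrbs3, Rbm44, Rbm11, Rbm26 and Celf5 lie lowest.

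The hnRNP family held 19 tested genes, of which 1 (5.26%) was lower, 9 (47.4%) were higher and 9 were not called. Of all genes, 24.7% were lower and 44.9% higher. The median log2 change was 0.10 for the hnRNP genes and 0.32 for all genes. The hnRNP proteins coat nascent transcripts, and 4 of them, Hnrnpa1, Hnrnpab, Hnrnpd and Hnrnpul1, are known to bind DAZAP1. Hnrnpa1 encodes a widely expressed repressor of exon inclusion, some of whose binding sites DAZAP1 also recognises. On its brightest probe set the signals were 2293, 2205 and 2167 in the Fn arrays, against 1605, 1044 and 1189 in the Wt arrays (log2 change 0.82, standard error 0.15, adjusted p = 0.00093 from limma). Every Fn array lay above every Wt array, and the Fn arrays were closer together than the Wt arrays, where replicate 1 was the highest. A further 3 probe sets that name Hnrnpa1 together with its pseudogenes were not used.

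Hnrnpab, which encodes a relative of hnRNP D that binds RNA and single-stranded DNA, was higher in the same way, with signals of 13725, 13311 and 12427 in the Fn arrays, against 9505, 8885 and 8003 in the Wt arrays (log2 change 0.58, standard error 0.077, adjusted p = 0.00016 from limma). The genotypes were clearly apart on this probe set, and 4 of its 6 probe sets were called higher. The fourth by brightness, which was not called, read 9696, 4999.6 and 3312 in the Fn arrays, against 8662, 5501 and 4676 in the Wt arrays (log2 change -0.16, adjusted p = 0.71 from limma). On it replicate 1 was far above the other two arrays in both genotypes. Hnrnpd encodes AUF1, which binds AU-rich messages and controls their decay. It rose by less, with signals of 3739.6, 3766 and 3567 in the Fn arrays, against 3145, 3034 and 3117 in the Wt arrays (log2 change 0.25, standard error 0.073, adjusted p = 0.013 from limma), and its call was lost without Fn replicate 1 (adjusted p = 0.055), with no intensity trend (0.055) and with arrays centred on the median (0.44) or the 75th percentile (0.18).

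Hnrnpul1, an hnRNP U-like protein, differed from the other three. Its signals were 4702, 5206 and 6217 in the Fn arrays, against 6416, 5956 and 6996 in the Wt arrays. The lowest values were Fn arrays, but Fn replicate 3 lay above Wt replicate 2, and the gene was not called (log2 change -0.27, 95% interval -0.51 to -0.03, adjusted p = 0.051 from limma). It was called lower in 10 of 18 alternatives, so the call depends on the setting. Among them were arrays centred on the median (log2 change -0.43, adjusted p = 0.020 from limma) or the 75th percentile (-0.40, 0.0099), array weights (0.011), the fit blocked by replicate number (0.014) and leaving out Fn replicate 3 (0.0071) or Wt replicate 2 (0.043).

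**Figure D2:**
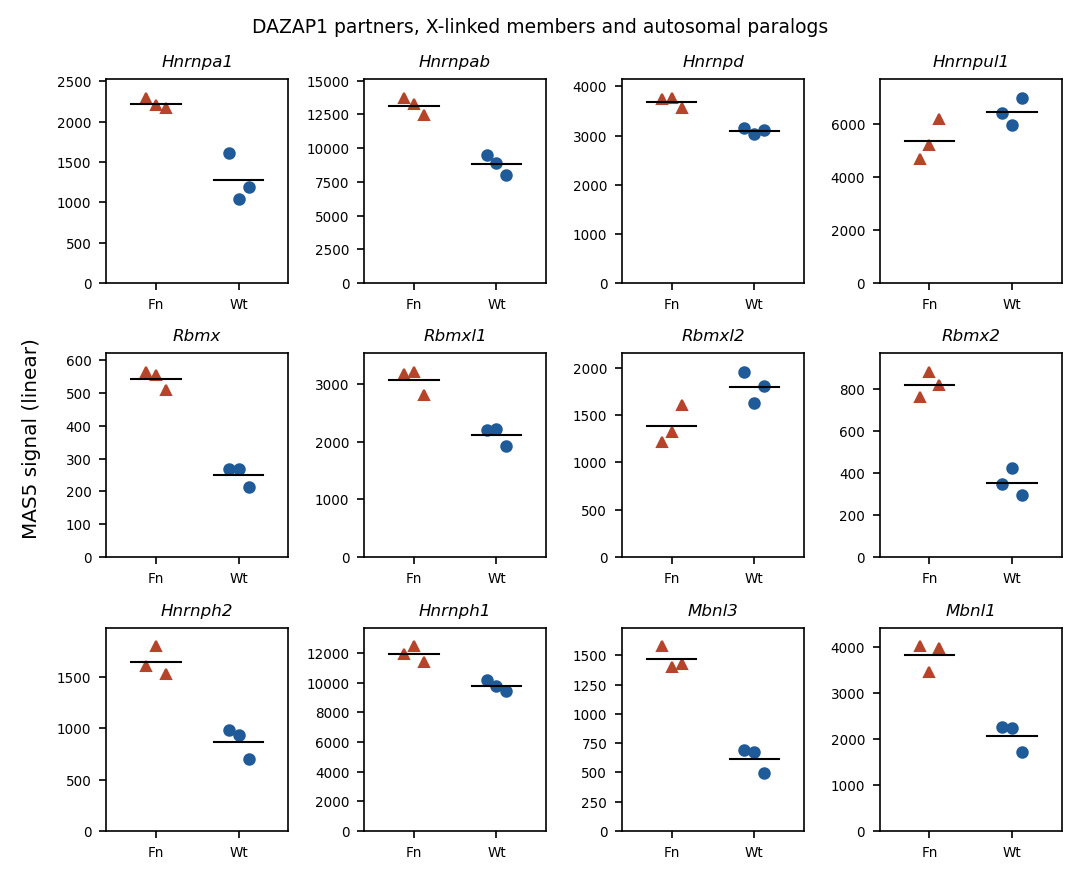
MAS5 signal of each array (linear scale from 0), Fn left of Wt, with bars at the arithmetic means. Shown are the DAZAP1 partners, X-linked Rbmx, Rbmx2, Hnrnph2 and Mbnl3, and some of the autosomal paralogs. The paralogs Mbnl2, whose Fn arrays also lay above the Wt arrays, and Hnrnpf, whose arrays overlapped, are not shown. Hnrnpa1, Hnrnpab, Hnrnpd, Mbnl3, Mbnl1 and all Rbmx and Hnrnph genes shown except Rbmxl2 have every Fn array above the Wt arrays, Rbmxl2 has them below, and in Hnrnpul1 they overlap.

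Among the other hnRNP genes, Hnrnpll was the one called lower. It encodes hnRNP L-like, known for switching CD45 exons in T cells. Its signals were 5787, 6486 and 5600.4 in the Fn arrays, against 8704, 8193 and 9291 in the Wt arrays (log2 change -0.55, standard error 0.080, adjusted p = 0.00028 from limma), with the genotypes well apart. Its paralog Hnrnpl, which binds CA repeats, was not called, at log2 -0.14 (95% interval -0.38 to 0.11). The 3 largest rises were those of Hnrnph2 (0.93), Hnrnpa1 (0.82) and Hnrnpul2 (0.64). Hnrnpul2, a paralog of Hnrnpul1, had signals of 2553, 2875 and 2518 in the Fn arrays, against 1857, 1649.9 and 1584 in the Wt arrays (adjusted p = 0.00038 from limma), with no overlap. Hnrnpdl (0.58) and Hnrnpr (0.49) were also higher, as were Hnrnpc (0.29), which guards against inclusion of Alu-derived exons in human cells, and Hnrnph1 (0.28), which binds G runs. The signals of Hnrnph1 were 11907, 12476 and 11403 in the Fn arrays, against 10164, 9781 and 9433 in the Wt arrays (adjusted p = 0.0032 from limma). The calls of Hnrnpc and Hnrnph1 were lost with the arrays centred on the median, at adjusted p = 0.19 and 0.18 from limma. The core proteins Hnrnpk (0.10), Hnrnpa2b1 (-0.01), Hnrnpf (-0.04), Hnrnpm (-0.10) and Hnrnpu (-0.13) were not called on their brightest probe sets, nor were Hnrnpa0 (0.02) and Hnrnph3 (0.03). Other probe sets of Hnrnpk, Hnrnpa2b1, Hnrnpf and Hnrnpu were called. Hnrnpf, a relative of Hnrnph1 and Hnrnph2, read 8849, 9032 and 8115 in the Fn arrays, against 9226, 9151 and 8272 in the Wt arrays on its brightest probe set, where the arrays overlapped, and was lower on 2 of its 4 probe sets (-0.43 and -0.49). It was called lower with the mean of its probe sets (log2 change -0.28, adjusted p = 0.0076 from limma) and without _s_at and _x_at probe sets (-0.43, 0.0016). Hnrnpk was higher on 2 of its 4 (0.44 and 0.29) and with the mean of all 4 (log2 change 0.20, adjusted p = 0.036 from limma). For Hnrnpa2b1's brightest probe set the 95% interval of the log2 change was -0.15 to 0.13 and for Hnrnpa0 -0.17 to 0.21.

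The 10 tested SRSF genes, the classical SR proteins with their arginine-serine tails, gave 1 lower (10%), 5 higher (50%) and 4 not called. Of all genes, 24.7% were lower and 44.9% higher. The median log2 change was 0.21 for the SRSF genes and 0.32 for all genes. The largest SRSF rises were those of Srsf2, Srsf9 and Srsf6. Srsf2, known as SC35 and a marker of nuclear speckles, had signals of 11014, 9874 and 9758 in the Fn arrays, against 7586, 6869 and 6133 in the Wt arrays (log2 change 0.58, standard error 0.089, adjusted p = 0.00039 from limma). Srsf9 had 6162, 5939 and 6289 in the Fn arrays, against 4147, 4011 and 4279.5 in the Wt arrays (log2 change 0.56, standard error 0.069, adjusted p = 9.9e-05 from limma), and Srsf6 had 7863, 7604 and 8176 in the Fn arrays, against 6024, 5317 and 5355 in the Wt arrays (log2 change 0.50, standard error 0.074, adjusted p = 0.00030 from limma). In all 3 genes the genotypes did not overlap. For Srsf2 the value turned to -0.032 (adjusted p = 0.92 from limma) when probe sets that can match several transcripts were left out, which kept a single dim probe set.

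Srsf1 (0.28), the founding SR protein, and Srsf3 (0.23), its smallest member, rose by less. Both calls were lost with the arrays centred on the median (adjusted p = 0.28 for Srsf1 and 0.54 for Srsf3 from limma), and that of Srsf3 also without Fn replicate 1 (0.14), Fn replicate 2 (0.093) or Wt replicate 3 (0.11). Srsf4 (0.13), Srsf5 (0.19), Srsf10 (0.15) and Srsf11 (-0.05) were not called on their brightest probe sets. The other 3 probe sets of Srsf10 were called higher (0.47, 0.62 and 0.77), and the gene was called higher with the mean of all 4 probe sets (log2 change 0.50, adjusted p = 0.0016 from limma) and with array weights (0.039). Srsf5 was called higher without Fn replicate 3 (adjusted p = 0.0097). Srsf12, a relative of the splicing repressor Srsf10, was the 1 lower gene and was dim, with signals of 59.4, 73.2 and 56.4 in the Fn arrays, against 98.2, 104 and 92.6 in the Wt arrays (log2 change -0.65, standard error 0.25, adjusted p = 0.041 from limma). Its genotypes did not overlap, but the call was lost in the fit blocked by replicate number (adjusted p = 0.058) and without Fn replicate 1 (0.10), Fn replicate 3 (0.095), Wt replicate 1 (0.091), Wt replicate 2 (0.11) or Wt replicate 3 (0.067).

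TRA2 proteins are SR-like activators that bind GAA-rich exon enhancers. Tra2b was lower, with signals of 7776, 6456 and 6160.3 in the Fn arrays, against 9191, 8800.1 and 9083 in the Wt arrays (log2 change -0.42, standard error 0.089, adjusted p = 0.0027 from limma), and all Fn arrays lay below the Wt arrays. Tra2a was not called (log2 change -0.12, 95% interval -0.35 to 0.10). SR proteins are switched on by kinases that phosphorylate their tails, and of 9 listed kinases 8 were tested, with 2 not called. Of the 8, 1 (12.5%) was lower and 5 (62.5%) were higher, where 24.7% and 44.9% of all genes were. Srpk1, a cytoplasmic SR protein kinase, was the lower one, with signals of 2265, 2389 and 2153 in the Fn arrays, against 3814, 3482 and 3879.7 in the Wt arrays (log2 change -0.71, standard error 0.084, adjusted p = 8.4e-05 from limma). Dyrk1a (0.81), Clk1 (0.69), Prpf4b (0.32), Clk2 (0.32) and Srpk2 (0.30) were higher.

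The 3 PTBP genes split 3 ways. These proteins bind pyrimidine tracts and repress exons, and Ptbp2, also called nPTB or brPTB, takes the place of Ptbp1 in neurons and in germ cells. Ptbp2 had signals of 4112, 4431 and 4120.2 in the Fn arrays, against 7139, 6255 and 7468 in the Wt arrays (log2 change -0.72, standard error 0.084, adjusted p = 7.9e-05 from limma). The Fn arrays were tightly grouped and all below the Wt arrays, and a second probe set gave a log2 change of -0.86. Ptbp1 was not called (log2 change 0.24, 95% interval -0.02 to 0.50), but was called higher without Fn replicate 2 (adjusted p = 0.012) and with the replicate block (0.018). Ptbp3 was higher, with signals of 1708, 1695 and 1525 in the Fn arrays, against 1082, 1048 and 872 in the Wt arrays (log2 change 0.72, standard error 0.11, adjusted p = 0.00047 from limma). The change of Ptbp2 was lower than that of Ptbp1 by 0.96 on the log2 scale (difference -0.96, SE 0.16), and the arrays did not overlap in this difference.

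To set Ptbp2 beside its sequence, the 250 bases before its RefSeq start in GRCm38.p6 (chr3:119783389-119783638, minus strand) are printed 5′ to 3′ on the gene's strand, with GC boxes, GGGCGG or its complement CCGCCC, in capitals.
Ptbp2: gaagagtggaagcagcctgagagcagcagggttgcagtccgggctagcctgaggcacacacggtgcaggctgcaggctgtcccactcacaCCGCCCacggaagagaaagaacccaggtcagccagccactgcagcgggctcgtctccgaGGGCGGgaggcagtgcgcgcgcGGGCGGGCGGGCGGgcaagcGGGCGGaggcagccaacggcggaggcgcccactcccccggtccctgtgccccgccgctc
This stretch held 6 GC boxes, some of them in an unbroken run, no CCAAT box and 72.4% G and C. A GC box stood in the same stretch of 35.4% of 27025 genes with a promoter in the table. A match of letters describes the sequence and shows no bound factor.

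CELF proteins bind UGU-rich RNA, and MBNL proteins, the muscleblind family, bind YGCY motifs, often with opposed effects on the same exons. Of 6 CELF genes 1 (16.7%) was lower, 3 (50%) were higher and 2 were not called, where 24.7% and 44.9% of all genes were lower and higher. The CELF median log2 change was 0.09, against 0.32 for all genes. Celf2 had signals of 3403, 2521 and 2882 in the Fn arrays, against 1536, 1400.5 and 1087 in the Wt arrays (log2 change 1.13, standard error 0.15, adjusted p = 0.00016 from limma), and Celf1 had 7858, 7451 and 6942 in the Fn arrays, against 4701, 4601 and 3586 in the Wt arrays (log2 change 0.80, standard error 0.11, adjusted p = 0.00019 from limma). Both were well above Wt in every Fn array. Celf5 was lower and dim, at 108, 108 and 104 in the Fn arrays, against 188, 172 and 292 in the Wt arrays (log2 change -0.99, standard error 0.23, adjusted p = 0.0041 from limma), with Wt replicate 3 far above the other Wt arrays. Celf4 read 178, 234 and 198 in the Fn arrays, against 147, 148 and 134 in the Wt arrays and was called higher (log2 change 0.50, standard error 0.18, adjusted p = 0.032 from limma). It was not called without Fn replicate 2 (adjusted p = 0.12 from limma), Fn replicate 3 (0.057), Wt replicate 1 (0.061), Wt replicate 2 (0.056) or Wt replicate 3 (0.078). Celf3 (-0.44) and Celf6 (-0.33) were not called.

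All 3 MBNL genes were higher, where 44.9% of all genes were. The MBNL median log2 change was 1.12, against 0.32 for all genes. X-linked Mbnl3 had signals of 1579, 1399 and 1429 in the Fn arrays, against 688, 670.5 and 496 in the Wt arrays (log2 change 1.26, standard error 0.14, adjusted p = 6.1e-05 from limma). Mbnl2 had 2031, 2148 and 2059.6 in the Fn arrays, against 1082, 1107 and 734 in the Wt arrays (log2 change 1.12, standard error 0.15, adjusted p = 0.00019 from limma), and Mbnl1 had 4012, 3457 and 3972 in the Fn arrays, against 2248, 2225 and 1705 in the Wt arrays (log2 change 0.90, standard error 0.12, adjusted p = 0.00018 from limma). The groups were apart in each gene, and Wt replicate 3 was the lowest array in all 3. MBNL genes are expressed in many somatic tissues, and their rise stood beside that of the Sertoli, peritubular and stromal marker sums given above; the part of those cells was not tested.

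RBFOX proteins bind UGCAUG, and NOVA proteins bind YCAY clusters in neurons. Rbfox3, known as the neuronal marker NeuN, had signals of 176, 146 and 192 in the Fn arrays, against 98.3, 73.7 and 85.1 in the Wt arrays (log2 change 1.0, standard error 0.22, adjusted p = 0.0028 from limma), at the edge of a 2-fold change. Rbfox2, the broadly expressed member, had 479, 358 and 207 in the Fn arrays, against 241, 266 and 197 in the Wt arrays and was not called (log2 change 0.50, 95% interval -0.12 to 1.12). The Fn arrays of Rbfox2 spread widely, and without Fn replicate 3 it was called higher (adjusted p = 0.0061 from limma), as it was with the replicate block (0.049). Nova1 (0.11, 95% interval -0.50 to 0.72) and Nova2 (-0.10, -0.60 to 0.41) were not called.

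KHDRBS genes encode the STAR proteins SAM68, SLM1 and SLM2, which bind UA-rich RNA and are known for neurexin exons in brain and for roles in spermatogenesis. Khdrbs3, the gene of SLM2 or T-STAR, a protein of brain and testis, was the lowest of all members. Its signals were 1001, 1443 and 914 in the Fn arrays, against 2986, 3401 and 3424 in the Wt arrays (log2 change -1.57, standard error 0.16, adjusted p = 3.3e-05 from limma). All Fn arrays were at less than 50% of any Wt array, with replicate 2 the highest of the 3. Khdrbs1, the gene of SAM68, was not called (log2 change 0.21, 95% interval -0.04 to 0.46), though it was called higher without Fn replicate 2 (adjusted p = 0.041), without Wt replicate 1 (0.045) and with the replicate block (0.040). Khdrbs2, the gene of SLM1, was dim, at 58.0, 65.2 and 73.2 in the Fn arrays, against 49.7, 40.3 and 31.1 in the Wt arrays, and was not called either (log2 change 0.72, 95% interval -0.01 to 1.45).

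**Figure D3:**
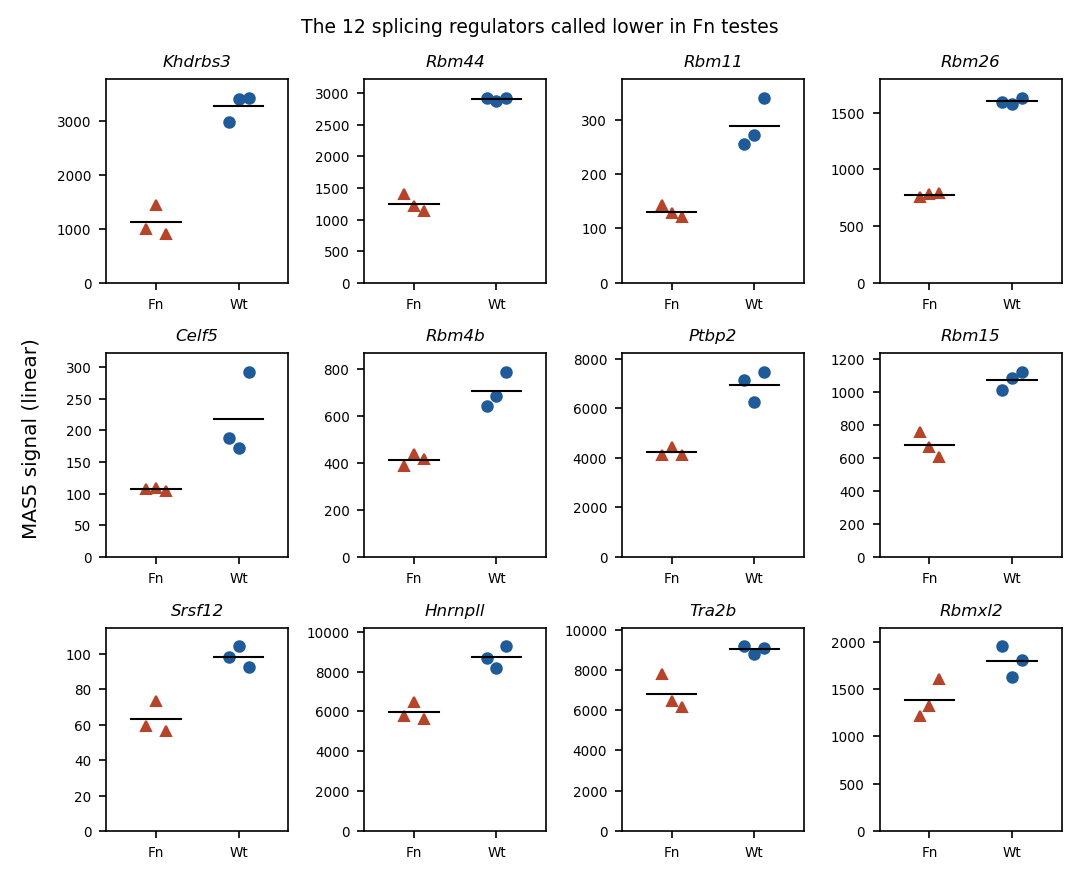
MAS5 signal of each array (linear scale from 0) for the 12 members called lower, Fn left of Wt, with bars at the arithmetic means of 3 arrays. The Fn arrays lie below the Wt arrays in every panel, with the largest log2 change for Khdrbs3 (-1.57) and the smallest for Rbmxl2 (-0.39).

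The RBM names join proteins with RNA recognition motifs and otherwise varied roles. Of 40 tested, 6 (15%) were lower, 20 (50%) were higher and 14 were not called, where 24.7% and 44.9% of all genes were lower and higher. The RBM median log2 change was 0.44, against 0.32 for all genes. Rbm44, whose protein sits in the bridges that join germ cells and binds TEX14, had signals of 1411, 1208 and 1129.8 in the Fn arrays, against 2917, 2876 and 2921 in the Wt arrays (log2 change -1.22, standard error 0.10, adjusted p = 9.3e-06 from limma). The Wt arrays were almost equal and all far above the Fn arrays, and a second probe set gave a log2 change of -1.24. Rbm11, a splicing regulator of brain and testis, had signals of 144, 128 and 121 in the Fn arrays, against 255, 271 and 339.8 in the Wt arrays (log2 change -1.13, standard error 0.18, adjusted p = 0.00043 from limma). The Fn arrays again lay together below the Wt arrays.

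Rbm26, which takes part in nuclear RNA decay, had signals of 754, 779.5 and 794 in the Fn arrays, against 1598, 1577 and 1629 in the Wt arrays on its brightest probe set (log2 change -1.05, standard error 0.093, adjusted p = 1.5e-05 from limma), with tight groups far apart. None of its other probe sets was called lower. Rbm15, a subunit of the complex that methylates adenosine in RNA, had 758, 669 and 603 in the Fn arrays, against 1012, 1084 and 1120.3 in the Wt arrays (log2 change -0.67, standard error 0.12, adjusted p = 0.00092 from limma). Rbm4b, a close relative of Rbm4, had 388, 438 and 417 in the Fn arrays, against 643, 684 and 787 in the Wt arrays (log2 change -0.76, standard error 0.13, adjusted p = 0.00064 from limma). The genotypes did not overlap in either gene, but the call of Rbm4b was lost with the mean of its 3 probe sets (log2 change -0.06, adjusted p = 0.70 from limma).

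The largest RBM rises were those of X-linked Rbmx2 and Rbmx and of Rbms3. Rbmx2, a part of the spliceosome's retention and splicing complex, had signals of 761, 882 and 820.0 in the Fn arrays, against 346, 422 and 295 in the Wt arrays (log2 change 1.22, standard error 0.15, adjusted p = 0.00011 from limma). Rbms3, which binds single-stranded nucleic acid, had 486, 501 and 474 in the Fn arrays, against 223, 292 and 171 in the Wt arrays (log2 change 1.13, standard error 0.19, adjusted p = 0.00072 from limma). Wt replicate 3 was the lowest array of both. The Rbms3 relatives Rbms2 (1.06) and Rbms1 (1.0) were higher too, Rbms1 just short of 2-fold. Of the other RBM genes called higher, X-linked Rbm41 (1.06) binds a snRNA of the minor spliceosome, Rbm38 (0.84) is a target of p53, Rbm7 (0.83) belongs to the nuclear exosome targeting complex, Rbm17 (0.53) recognises 3′ splice sites, Rbm22 (0.59) sits in the active spliceosome and Rbm8a (0.33) is a core subunit of the exon junction complex. Rbm39 rose by 0.49, Rbm25 by 0.48 and Rbm27, a relative of Rbm26, by 0.45. Rbm18 (0.82), Rbm34 (0.82), Rbm12 (0.68), Rbm12b1 (0.66), Rbm43 (0.61) and Rbmxl1 (0.53) were also higher. The log2 change of Rbm34's other probe set differed from that of its brightest by -0.88 (adjusted p = 0.062 from limma). With the arrays centred on the median the calls of Rbm8a (adjusted p = 0.17), Rbm27 (0.057) and Rbm43 (0.05001) were lost, and with the mean of its probe sets that of Rbm25 (0.54).

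Several RBM genes with known roles in spermatogenesis or muscle were not called. Rbm46, which mouse germ cells need to enter meiosis, had signals of 3160.2, 3629.8 and 3030.2 in the Fn arrays, against 2993, 2822 and 2552 in the Wt arrays (log2 change 0.23, 95% interval 0.01 to 0.45, adjusted p = 0.067 from limma). Its arrays did not overlap, and it was called higher without Fn replicate 3 (0.047) and with the replicate block (0.041). Rbm5, which mouse spermatids need, stood at -0.15 (95% interval -0.35 to 0.04), and Rbm20, the regulator of titin splicing in heart, at 0.28 (-0.26 to 0.81). Rbm45 spread widely, with signals of 1457, 505 and 854 in the Fn arrays, against 1128, 1038 and 1294 in the Wt arrays. Its Fn arrays lay on both sides of the Wt arrays, and without Fn replicate 1 it was called lower (log2 change -0.81, adjusted p = 0.013 from limma). Without Fn replicate 2, Rbm42 was called higher (adjusted p = 0.036) and Rbm6 lower (0.028), and without Wt replicate 2, Rbm12b2 was called higher (0.038). The other RBM genes not called on their brightest probe sets were Rbm33 (-0.20), Rbm14 (-0.07), Rbm15b (0.01), Rbm28 (0.02), Rbm48 (0.02), Rbm19 (0.05) and Rbm47 (0.49). Rbm14 was lower on 3 of its 5 probe sets (-0.26, -0.45 and -0.82) and was called lower without _s_at and _x_at probe sets (log2 change -0.45, adjusted p = 0.0085 from limma). The second probe sets of Rbm28 (0.65) and Rbm15b (0.36) were called higher.

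The X-linked members rose together. Male germ cells silence the X chromosome during pachytene. All 5 X-linked members tested were higher, namely Mbnl3, Rbmx2, Rbmx, Rbm41 and Hnrnph2, with a median log2 change of 1.12, and 4 of them changed by more than 2-fold. Over all 461 X-linked genes tested, 398 (86.3%) were higher, 232 (50.3%) were more than 2-fold higher and the median log2 change was 1.01. The 85 members not on the X chromosome had a median of 0.24, with 12 lower and 37 higher. Hnrnph2, a relative of Hnrnph1 that binds G runs, had signals of 1607, 1805 and 1528 in the Fn arrays, against 985, 933 and 698 in the Wt arrays (log2 change 0.93, standard error 0.14, adjusted p = 0.00038 from limma).

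Rbmx and its autosomal copy Rbmxl2 moved in opposite directions. Rbmx encodes hnRNP G, and Rbmxl2 on chromosome 7 encodes hnRNP G-T, made from an intronless copy that mouse spermatocytes need to finish meiosis. Rbmx had signals of 564, 556 and 509.6 in the Fn arrays, against 269.5, 267 and 214 in the Wt arrays (log2 change 1.12, standard error 0.14, adjusted p = 0.00013 from limma), and its second probe set gave a log2 change of 1.40. Rbmxl2 had 1220.4, 1316 and 1604 in the Fn arrays, against 1956, 1632 and 1803 in the Wt arrays (log2 change -0.39, standard error 0.12, adjusted p = 0.021 from limma). Rbmx was thus high in every Fn array, whereas Rbmxl2 was low in every Fn array, with Fn replicate 3 close under the lowest Wt array. The call of Rbmxl2 was lost without Fn replicate 1 (adjusted p = 0.089), Fn replicate 2 (0.054), Wt replicate 1 (0.078) or Wt replicate 3 (0.05037). Another autosomal copy, Rbmxl1, was higher, at 3181, 3216 and 2813 in the Fn arrays, against 2204, 2227 and 1933 in the Wt arrays (log2 change 0.53, standard error 0.095, adjusted p = 0.00096 from limma).

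The 250 bases before the RefSeq start of both genes in GRCm38.p6 are printed 5′ to 3′ on the gene's strand, since the copies moved in opposite directions. Capitals mark the CCAAT box and the GC box (CCGCCC here); Rbmx lies at chrX:57393037-57393286 on the minus strand and Rbmxl2 at chr7:107209195-107209444 on the plus strand.
Rbmx: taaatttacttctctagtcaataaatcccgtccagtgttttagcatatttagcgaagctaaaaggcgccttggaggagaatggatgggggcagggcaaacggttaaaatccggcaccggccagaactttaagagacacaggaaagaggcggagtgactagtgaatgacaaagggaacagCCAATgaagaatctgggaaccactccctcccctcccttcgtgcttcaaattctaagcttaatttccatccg
Rbmxl2: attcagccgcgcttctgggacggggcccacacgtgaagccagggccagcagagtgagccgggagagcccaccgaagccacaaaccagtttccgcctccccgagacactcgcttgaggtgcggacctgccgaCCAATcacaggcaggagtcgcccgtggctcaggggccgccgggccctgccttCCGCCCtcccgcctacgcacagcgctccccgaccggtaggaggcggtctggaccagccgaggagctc
Both held 1 CCAAT box (found in 37.5% of 27025 genes, on either strand), and Rbmxl2 alone held a GC box. G and C made up 46.8% of the Rbmx stretch and 70.0% of the Rbmxl2 stretch. Among the 76 members with a promoter in the table, a GC box stood before 7 of 9 lower, 20 of 35 higher and 20 of 32 uncalled members. The full cAMP response element TGACGTCA, present before 1.77% of genes, stood before 0 lower, 0 higher and 3 uncalled members. Its half-site TGACG, which the full element contains, stood before 2 of 9 lower, 13 of 35 higher and 16 of 32 uncalled members, and before 19.8% of genes.

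Paralogs within a family were set against each other by the difference of their log2 signals on each array, in 13 pairs chosen after their values were seen. The difference in log2 change was 1.51 (SE 0.21) for Rbmx minus Rbmxl2, 0.59 (SE 0.048) for Rbmx minus Rbmxl1, 0.65 (SE 0.13) for Hnrnph2 minus Hnrnph1, 0.97 (SE 0.11) for Hnrnph2 minus Hnrnpf and 0.37 (SE 0.056) for Mbnl3 minus Mbnl1. The X-linked gene had the higher change in these pairs, but for Mbnl3 minus Mbnl2 the Fn and Wt arrays overlapped (0.14, SE 0.087, exact permutation p = 0.2). The difference was -1.79 (SE 0.33) for Khdrbs3 minus Khdrbs1, -0.42 (SE 0.064) for Hnrnpll minus Hnrnpl, -0.29 (SE 0.11) for Tra2b minus Tra2a, -0.80 (SE 0.16) for Srsf12 minus Srsf10 and 0.91 (SE 0.18) for Hnrnpul2 minus Hnrnpul1. In 11 of the 13 pairs the Fn and Wt arrays did not overlap, which gives an exact two-sided permutation p of 0.1, the smallest that 3 against 3 arrays allow, and 0.12 after adjustment over the pairs. Ptbp3 minus Ptbp1 (0.48, SE 0.23) also overlapped (exact permutation p = 0.2).

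**Figure D4:**
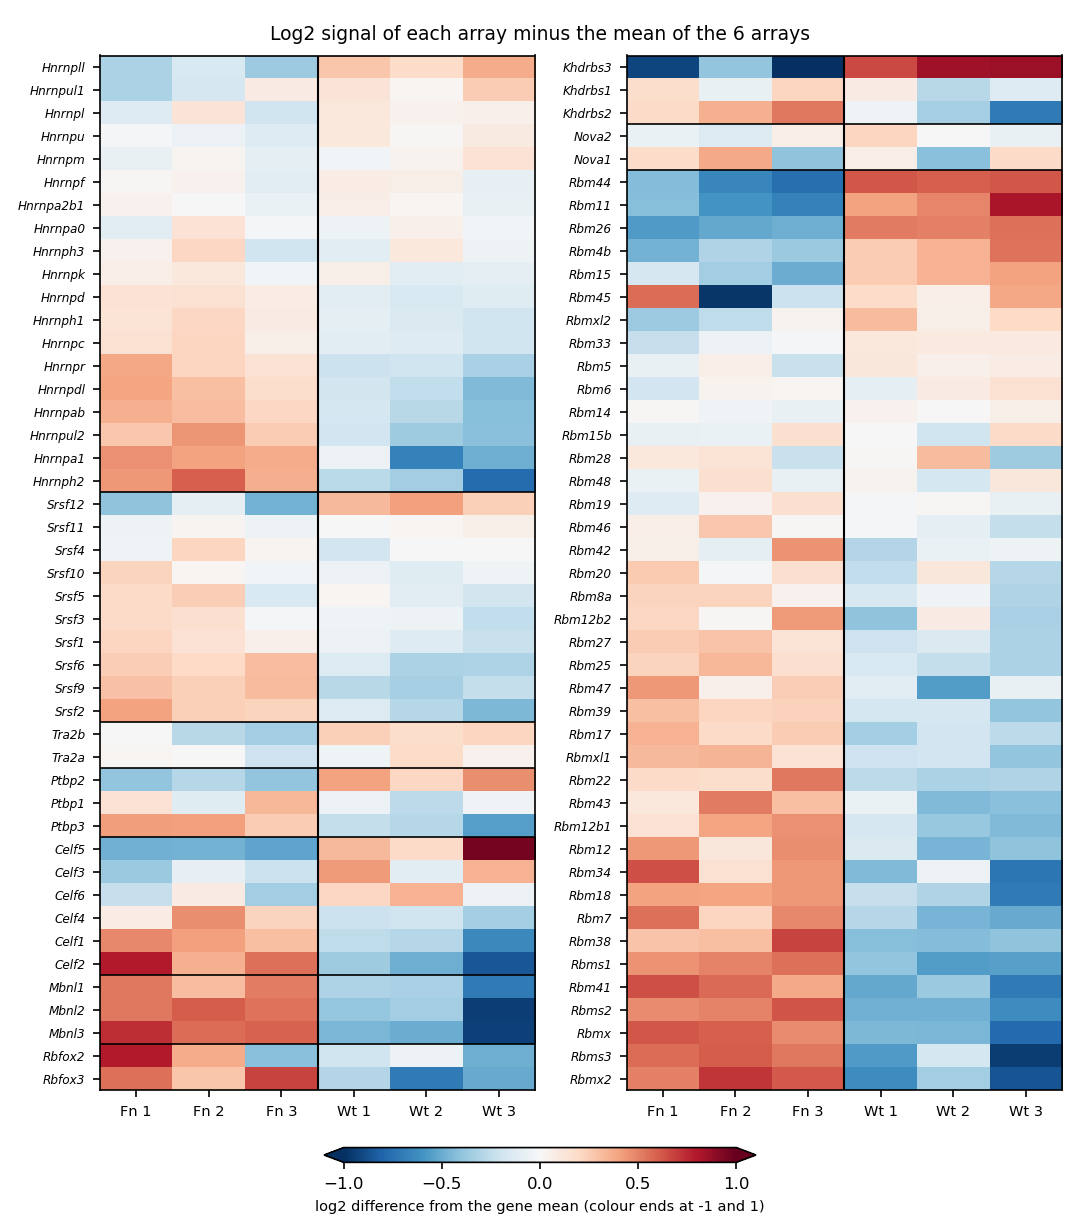
Log2 signal of each array minus the mean of the 6 arrays, for the 90 members in rows, ordered by family and log2 change, with Fn arrays left of Wt arrays. Red is above and blue below the gene's mean; Wt replicate 3 is the lowest Wt array for 31 of the 42 members called higher.

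In the Wt arrays the members followed differences that ran through the whole array. Of the 42 members called higher, 31 (73.8%) had their lowest Wt value in replicate 3, as had 66% of all genes called higher. Of the 12 called lower, 9 (75%) had their highest Wt value there, as had 67.4% of all genes called lower. In the Fn arrays, replicate 3 was lowest for 21 of the 42 higher members (50%), against 26.8% of all genes called higher, and for 8 of the 12 lower members (66.7%), against 45.8%. Leaving out Wt replicate 3, or any other single array, kept the number of members called lower at 9 to 12, the number called higher at 40 to 44 and the median log2 change at 0.24 to 0.31.

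Many of these genes have several probe sets, which can read different ends or isoforms of a transcript. Of 230 member probe sets tested, 24 (10.4%) were lower, 105 (45.7%) were higher and 101 were not called, where 20.9% of the 23851 probe sets that name 1 gene were lower and 42.7% were higher. Of 35 called members with more than 1 probe set, 15 (42.9%) had every probe set called the same way, against 50.8% of all such genes. Of 20 members with more than 1 probe set that were not called on the brightest, 13 (65%) had another probe set called, against 39.6% of all such genes. A pair of probe sets was called unequal where the difference of their log2 changes passed limma's test. This held for 15 of 140 member pairs (10.7%), against 13.9% of the 10404 pairs of all genes, and for 10 of 55 members (18.2%), against 18.7% of all genes with more than 1 probe set. With each array left out in turn the number of members was 2 (without Fn replicate 1), 3 (without Wt replicate 3), 5 (without Fn replicate 2, Fn replicate 3 or Wt replicate 2) and 6 (without Wt replicate 1). The 10 were Hnrnpa2b1, Hnrnpdl, Hnrnpu, Mbnl2, Rbm26, Rbm4b, Rbm8a, Rbms1, Srsf11 and Srsf6.

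Rbm26 was the 1 member with probe sets called in opposite directions, where 4.24% of all genes with more than 1 probe set were. Its brightest probe set fell by 1.05 on the log2 scale in Fn testes, as given above. The second brightest had signals of 1304, 1211 and 1152 in the Fn arrays, against 929, 963 and 808 in the Wt arrays (log2 change 0.44, standard error 0.11, adjusted p = 0.0063 from limma). The other two gave 0.34 and 0.06 and were not called. The first 2 changed unequally by 1.49 (adjusted p = 0.0023 from limma), and Rbm26 had an unequal pair whichever array was left out. Because the probe sets are about equally bright, the one standing for the gene changed without Wt replicate 1, 2 or 3, and the gene was then called higher (log2 change 0.47, 0.49 and 0.37). The probe set called lower has the suffix _s_at, which marks probe sets that can match more than 1 transcript.

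Other members had probe sets that differed in size or call. Hnrnpa2b1 was not called on its brightest probe set, which read 12216, 11883 and 11315 in the Fn arrays, against 12409.6, 11995 and 11268 in the Wt arrays, whereas the second brightest had 8134, 6882 and 6388 in the Fn arrays, against 5094, 4977 and 4057 in the Wt arrays (log2 change 0.60, standard error 0.11, adjusted p = 0.0014 from limma). The mean of its probe sets gave 0.32 (adjusted p = 0.012 from limma). Hnrnpu likewise was not called on its 3 brighter probe sets and was higher on 2 dimmer ones (0.60 and 0.52). Srsf11 was not called on its brightest but lower on 2 others (-0.66 and -0.49). Rbfox2 was higher on 2 of 4 (0.68 and 0.83). A dimmer probe set was called lower in Rbm12b2 (-0.62) and Rbm6 (-0.32) and higher in Rbm42 (0.33). Srsf6 was higher on all 4, by 0.50 on the brightest and by as much as 1.10 on another. The probe sets were not placed within the transcripts here.

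**Figure D5:**
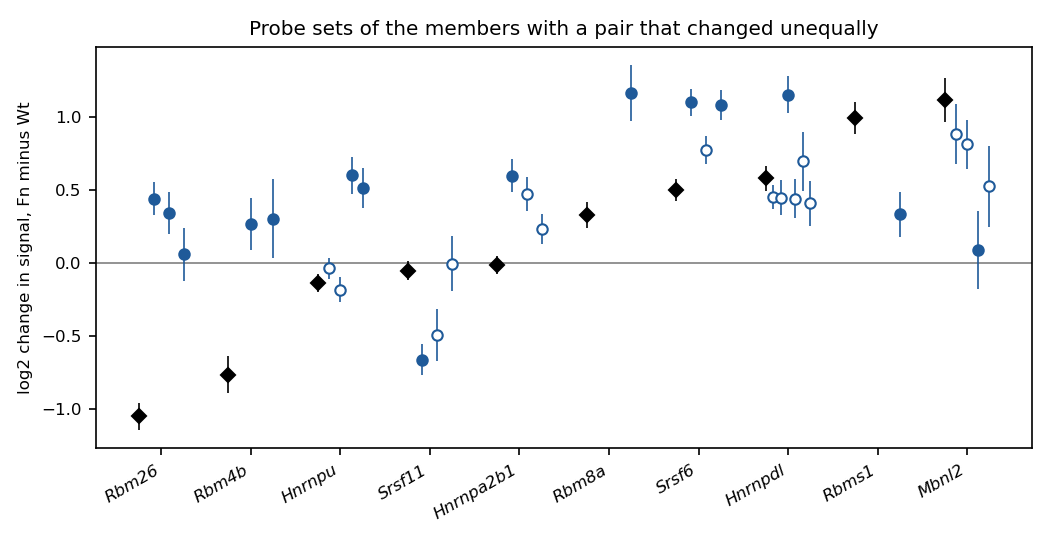
Log2 change, Fn minus Wt, of every tested probe set of the 10 members with probe sets that changed unequally, 1 column per gene, with standard errors as vertical lines. Black diamonds are the brightest probe sets, and blue circles are filled where the difference from the brightest passed the test. Rbm26 has its brightest probe set at -1.05 and the other three at 0.06 or above.

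Outside these families, 53 other splicing regulators were listed and 48 were tested, with 17 not called and a median log2 change of 0.14. Of the 48, 12 (25%) were lower and 19 (39.6%) were higher, where 24.7% and 44.9% of all genes were. The list includes Dazap1 itself, the mutated gene, which is 1 of the 12 lower and the third lowest (-0.77). Pcbp3, a poly(C)-binding protein, was lowest (log2 change -1.87), followed by Sugp2 (-1.20). Ybx1 (-0.74), a cold-shock domain protein, Raver1 (-0.72), a partner of PTB, and Sugp1 (-0.51) were lower too. Elavl2 (1.33) and Elavl3 (1.18), which bind U-rich RNA in neurons and gonads, were highest, followed by X-linked Nono (1.04) and by Esrp1 (1.03), an epithelial splicing regulator. Fubp1 (0.79) and Sfpq (0.55), the partner of Nono, were higher as well.

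The 2 members not tested were Rbfox1 and Rbm24, whose geometric mean signals lay under the filter level of 48.0. Rbm24, a splicing regulator of heart and muscle, had signals of 72.1, 58.0 and 57.5 in the Fn arrays, against 23.4, 16.4 and 27.5 in the Wt arrays, so the groups did not overlap. Rbfox1 read 22.6 or less in every array. Another 5 family names, Hnrnpa3, Rbm3, Rbm4, Rbm10 and Rbm31y, stood only on probe sets that also name another gene and were not analysed here. The antisense name Rbm46os, left out of the members, had signals of 103, 119.6 and 102 in the Fn arrays, against 346, 379 and 327 in the Wt arrays (log2 change -1.70), while Rbm46 itself was not called.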

How the data were processed

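The authors deposited MAS5 signal intensity values, linear and scaled to one level, for 6 Affymetrix arrays of P21 whole testes, 3 Fn and 3 Wt. The submitters' processing notes name MAS5 with no version. The study's methods name GeneSpring and a fold threshold. Of 45037 probe sets, 34945 name 1 gene, 932 several and 9160 none by the platform annotation, and only the first kind was used. All 92 members matched the RefSeq gene table of GRCm38.p6 by Entrez gene identifier.

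Log2 intensities (1 value of 0 set to 0.1) were fitted in R 4.3.3 with limma 3.58.1 (lmFit, eBayes with an intensity trend), Fn minus Wt, over 27022 probe sets at or above the 40th percentile of mean log2 signal. P-values were adjusted by Benjamini-Hochberg over all of these, and a call needs an adjusted p under 0.05. The brightest probe set stands for a gene (13447 genes). Pairs of probe sets of 1 gene were tested on their log2 difference. Paralog pairs were compared by an exact permutation test (scipy 1.17.1). Steps were tested on simulated data. Precision is limited by the number of arrays.

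The members, gene lists and marker lists were chosen with earlier results of these data known, and the paralog pairs, promoters and motifs after their values were seen. Named with values in each array are Hnrnpa1, Hnrnpab, Hnrnpd, Hnrnpul1, Ptbp2, the paralog sets with an X-linked gene, up to 3 falls and 3 rises per family among called members whose arrays do not overlap, and members with probe sets called in opposite directions. Others are named by log2 change; those given array by array beyond this rule were chosen after their values were seen.

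Deviations from the genotype means correlated at 0.12 to 0.16 between same-numbered Fn and Wt arrays and at -0.15 to 0.04 between others, which was taken as pairing by number. This rests on the values, not on a statement of the study. Because each genotype was centred on its own mean, positive correlations in some pairs force negative ones in others. The correlations therefore cannot establish a pairing, and the main fit had no block. Arrays of a genotype had Spearman correlations of 0.951 to 0.961, and arrays of different genotypes 0.897 to 0.914. No 2 arrays shared more than 0.27% of their values. Alternatives covered scaling, filter, a pseudocount of 16, the variance prior, array weights, the probe set used, the replicate block and leaving out each array; leaving out probe sets ending in _s_at or _x_at was added after seeing the data.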

Additional observations from a re-analysis of the deposited data

How the results depend on the processing

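Of the 54 called members, 39 were called in the same direction under every alternative that tested them. Over 1605 values of members under alternatives, 1496 kept their call status, 51 lost a call and 52 gained one. Another 6 changed direction with a call in the main setting or the alternative. Values that changed sign without a call in either setting were counted as kept. The 6 were Rbm26 without Wt replicate 1, 2 or 3 (leaving out each of the 6 arrays gave log2 changes of -1.06 to 0.49) and without _s_at and _x_at probe sets (0.44), Srsf2 without those probe sets (-0.032), both of which then rest on another probe set, and Hnrnpa2b1 with the mean of its probe sets (0.32).

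Members lower in Fn numbered 4 and members higher in Fn 9 when a more than 2-fold change was asked for. The median log2 change of the members was 0.12 with the arrays centred on the median and 0.14 with the 75th percentile. That of all genes was 0.17 and 0.19. Leaving out each array in turn gave 9 to 12 lower members, 40 to 44 higher members, medians of 0.24 to 0.31 and 2 to 6 members with probe sets that changed unequally. With the replicate number as a block, 12 members were lower and 46 higher, the median was 0.27 and 11 members had unequal probe sets. The block ended the call of Srsf12 and added those of Hnrnpul1, Khdrbs1, Ptbp1, Rbfox2 and Rbm46, and changed no other call of a member. Dim signals limit Rbm24 and Rbfox1, which the filter left untested.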
